A study of Mus musculus with 19 samples.

Results

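The change in the response of C2C12 cells to thapsigargin between 2 and 6 h was measured gene by gene. C2C12 is a mouse myoblast line, here wild type, and thapsigargin blocks SERCA, the pump that carries calcium into the endoplasmic reticulum (ER). The comparison rests on 12 of the 19 libraries of the series, 3 in each of 4 groups: the vehicle DMSO for 2 h, 100 nM thapsigargin for 2 h, DMSO for 6 h and 100 nM thapsigargin for 6 h. Every group was bulk poly(A) RNA of the same line, and each drug group had a vehicle group of its own time. The response at a time is the log2 level under thapsigargin minus that under DMSO, and the response change is the response at 6 h minus the response at 2 h. Of 55401 gene identifiers, 16312 had enough reads to be tested. Nothing in the labels says that the replicates came from different cultures, and where they did not, the tests below measure technical spread alone. In bulk RNA, a lower level can mean fewer cells of a type or less RNA per cell, and these cannot be told apart.

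Loss of calcium from the ER disturbs protein folding there, and the unfolded protein response (UPR) answers through the sensors PERK, IRE1 and ATF6. PERK phosphorylates eIF2alpha, which lowers general translation and favours that of ATF4, and this branch is shared with the integrated stress response (ISR). ATF4 pairs with C/EBP proteins such as C/EBPgamma on composite DNA elements near genes for amino acid supply and feedback, while cleaved ATF6 and spliced XBP1 act on ER stress elements near chaperone genes. Calcium signals and MAP kinases also induce short-lived transcripts called immediate early genes.

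The promoters below are a selection of those that carry these elements. Among the composite genes shown, only Chac1 had a response change called lower. Of the other named genes, Atf3 and Trib3 (not called), Gars (called higher) and Kif2c (called lower) also hold the composite. Each sequence was read from RefSeq promoters of build GRCm38.p6, runs 5′ to 3′ on the strand of the gene and has the match in capitals. The first 6 hold the C/EBP-ATF composite TGATGNAA, the last 2 the ER stress element, which is CCAAT, any 9 bases and CCACG, in either orientation.
Asns, chr6:7693214-7693243, minus strand: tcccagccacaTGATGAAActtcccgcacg
Slc7a11, chr3:50443637-50443696, minus strand: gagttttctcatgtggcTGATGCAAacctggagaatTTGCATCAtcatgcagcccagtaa
Pycr1, chr11:120643818-120643877, minus strand: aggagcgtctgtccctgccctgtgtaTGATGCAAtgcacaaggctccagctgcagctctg
Fgf21, chr7:45615596-45615655, minus strand: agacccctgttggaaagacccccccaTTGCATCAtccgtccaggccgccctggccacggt
Avil, chr10:127000649-127000708, plus strand: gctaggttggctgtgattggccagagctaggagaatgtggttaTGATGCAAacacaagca
Chac1, chr2:119351023-119351082, plus strand: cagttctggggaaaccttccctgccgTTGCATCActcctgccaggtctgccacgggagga
Hspa5, chr2:34772019-34772048, plus strand: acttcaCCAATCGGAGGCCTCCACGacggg
Hsp90b1, chr10:86705513-86705572, minus strand: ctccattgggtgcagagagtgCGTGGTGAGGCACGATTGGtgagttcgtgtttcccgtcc
The composite match began 17 bases before the annotated start of Avil, 23 before that of Asns, 193 before that of Chac1, and at 66 and 47 bases before that of Slc7a11. In GENCODE M21 the Asns and Hspa5 matches lie inside the first exon of a longer transcript model, so the position of a match depends on the start site used.

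Promoters here are windows from 250 bases before to 50 after the RefSeq start, searched on both strands. RefSeq promoters were matched for 418 of the 555 genes whose response change was called higher, 313 of the 447 called lower and 11124 tested genes. The composite TGATGNAA was in 27 promoters of genes called higher, which is 6.46%, in 7 of those called lower, 2.24%, and in 2.38% of all tested. The ER stress element was in 5 promoters of genes called higher, those of Hspa5, Hsp90b1, Calr, Dnajc3 and Alg12, or 1.20%, in 0 of those called lower and in 0.171% of all tested. The XBP1-type element TGACGTGG was in 1.67%, 0 and 0.818% of the same sets. The cyclic AMP response element TGACGTCA was in 1.91%, 2.24% and 3.19%, and the CArG box, bound by serum response factor, in 1.67%, 1.92% and 1.39%. Among all 27025 promoters of the table the shares were 4.06% for the composite, 0.130% for the ER stress element, 0.607% for TGACGTGG, 1.88% for the cyclic AMP element and 1.57% for the CArG box. TGACGTGG and TGACGTCA share their first 6 letters, and the composite overlaps neither in full. These are descriptions of letters in windows, with no test.

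Libraries held 31.66 to 40.96 megareads assigned to genes. Levels below are counts per megaread (CPM) on library sizes scaled by TMM. Mitochondrial genes took 15.8% of the reads of DMSO 2 h replicate 3 and 1.41% to 3.07% in the 11 others. Short transcripts (the shortest of 3 equal classes) were higher and long ones lower at 6 h than at 2 h in both arms: the medians of the 6 h minus 2 h difference were 0.93, 0.01 and -0.82 from short to long in DMSO and 1.05, 0.08 and -0.69 in thapsigargin, which left medians of 0.00, 0.03 and 0.11 in the response change. The difference between long and short transcripts was -0.04 in thapsigargin 6 h replicate 1, against -0.78 and -0.66 in the other 6 h drug libraries. With both of these libraries left out, an alternative added after the data were seen, 2263 genes were called. The myoblast markers Des, Itga7, Cdh15, Ncam1, Myod1 and Myf5 were read in all 4 groups, and mean Des, the muscle intermediate filament, was 1151.0, 811, 2105.4 and 1482.2 CPM in DMSO 2 h, thapsigargin 2 h, DMSO 6 h and thapsigargin 6 h. Msc, a further marker, was lower, with means of 8.26, 10.5, 7.62 and 1.47 CPM in the same order.

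Between 2 and 6 h, the response changes called among genes for amino acid supply, tRNA charging and ER folding were upward, and those called among immediate early, MAP kinase feedback, replication and matrix genes were downward. In each of these lists most members were not called. At an adjusted p under 0.05 in edgeR's quasi-likelihood test, 1002 of 16312 genes were called, 6.14% of those tested. The response change was higher for 555 genes, 3.4%, and lower for 447, 2.74%, and 3201 genes had an unadjusted p under 0.05. The total was 514 to 524 without any 1 thapsigargin 2 h library, 562 without DMSO 6 h replicate 1 and 657 without thapsigargin 6 h replicate 3. The smallest change called was 0.70 upward and 0.75 downward, and the medians of the called genes were 2.05 and -1.54 on the log2 scale, against 0.05 over all tested genes. Of the 1002, 900 differed by at least 2-fold and 413 by at least 4-fold. A group total under 10 counts occurred in 98 called genes, 95 of them called higher, and their fitted folds depend on the model's prior.

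Most upward calls were responses that grew or crossed 0. Among the 555 genes called higher, 312 had a response above 0 at both times that grew, with medians of 0.55 at 2 h and 2.94 at 6 h, and 238 went from below 0 to above 0, with medians of -0.31 and 1.47. For the other 5 a negative response became smaller. Among the 447 called lower, 207 had a negative response that deepened, from a median of -0.34 to -1.80. Another 219 went from above 0 to below 0, with medians of 0.41 and -1.14, and in 21 a positive response became smaller, from 2.09 to 0.34. These kinds rest on the signs of the fitted responses, whether or not a response was called. At 2 h the response was called for 83 of the 312, 16 of the 238, 30 of the 207 and 54 of the 219. By these signs, a positive response that only shrank was the least common of the downward kinds.

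**Figure D1:**
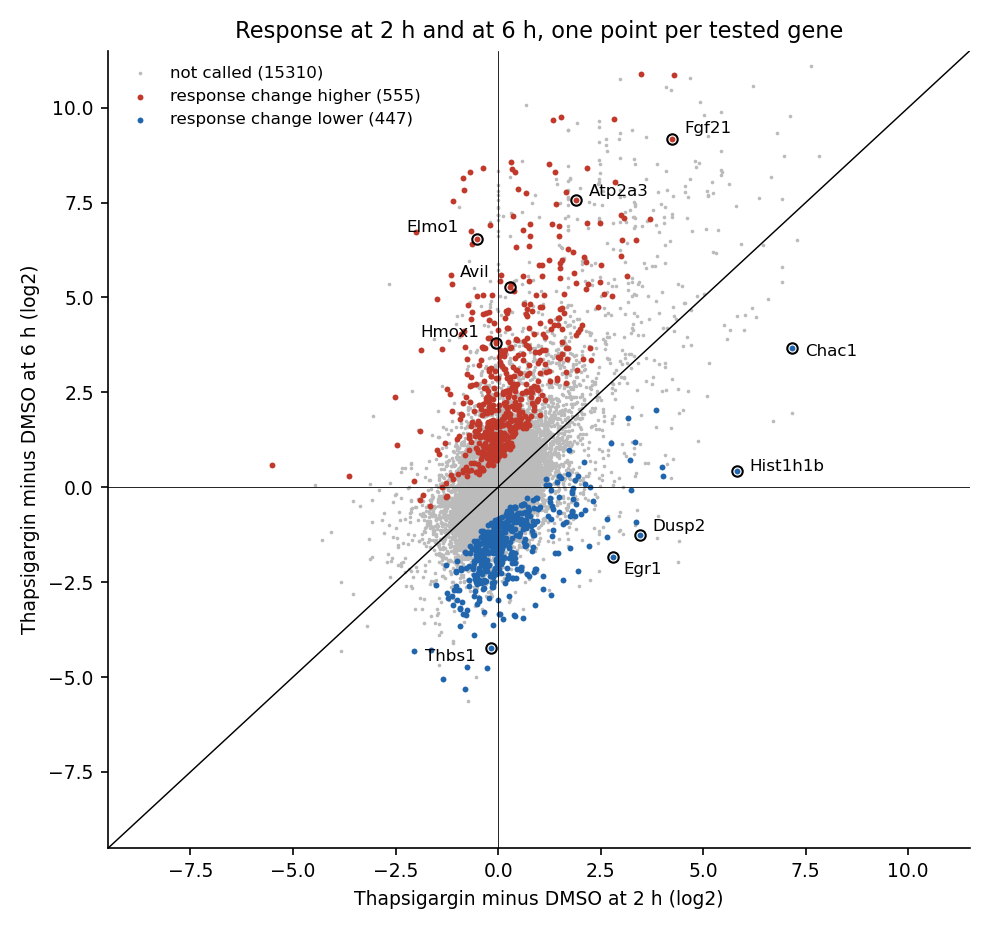
Each point is a tested gene, with the log2 thapsigargin minus DMSO difference at 2 h on the horizontal axis and at 6 h on the vertical axis, and the diagonal marks equal responses. Red points are the 555 genes whose response change was called higher, blue points the 447 called lower and grey points the 15310 not called. Avil, Elmo1 and Hmox1 lie near 0 at 2 h and far above 0 at 6 h, while Chac1 lies to the right of the diagonal and Egr1 and Dusp2 pass from right of 0 to below it.

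Because the response change is a difference of differences, a gene can be called through its drug groups, its vehicle groups or both. Among genes called higher, the 6 h minus 2 h difference was larger in size in the drug groups for 317 and in the vehicle groups for 238, with medians of 1.18 in the drug groups and -0.89 in the vehicle groups. Among genes called lower the counts were 326 and 121, and the medians -1.39 and 0.21. With offsets for transcript length and GC content, the counts were 373 and 182 for genes called higher and 329 and 118 for those called lower. These differences over time are given as values with no test, since time in culture and time since the medium was changed or vehicle added cannot be told apart here. Differences between the 2 h and the 6 h libraries themselves, such as the length trend given above, cannot be told apart from time either. This holds for the differences over time of single genes below as well.

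**Figure D2:**
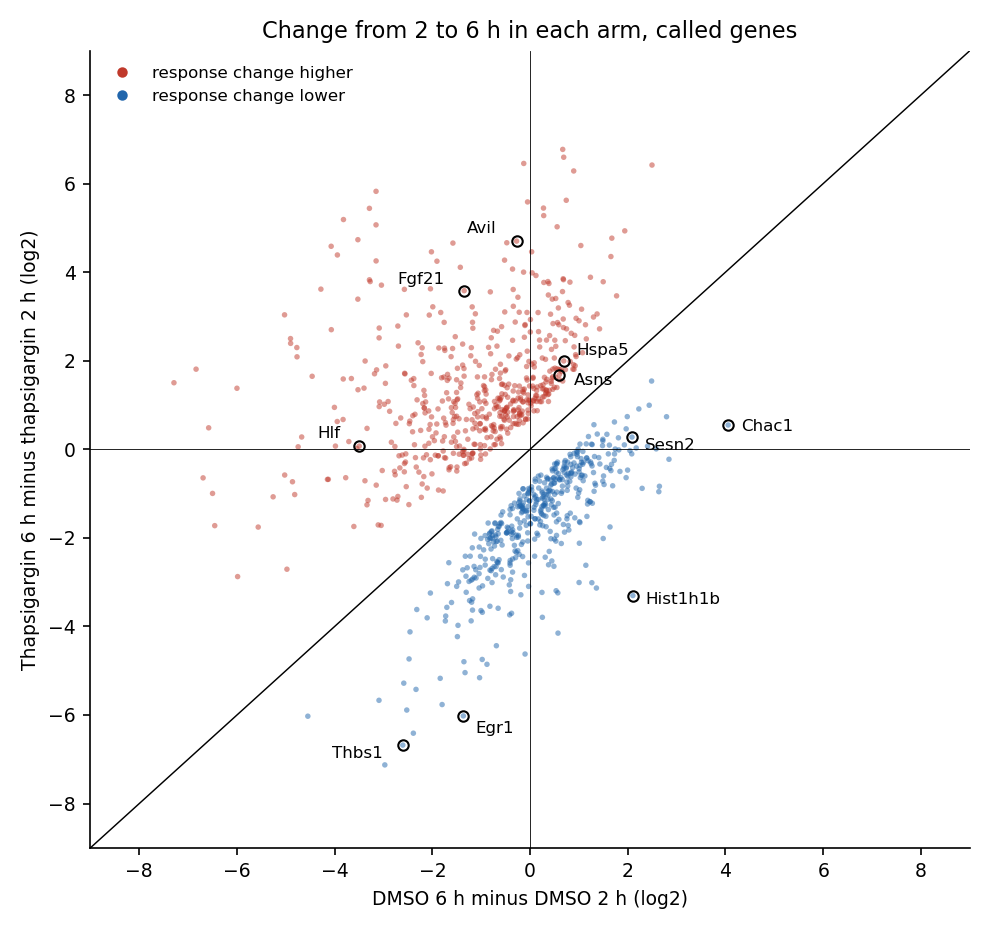
The 6 h minus 2 h log2 difference in the DMSO groups is on the horizontal axis and that in the thapsigargin groups on the vertical axis for the 1002 called genes, 98 of which had fewer than 10 counts in a group. Red is a response change called higher and blue called lower. Avil and Hspa5 lie high on the vertical axis, Chac1 and Sesn2 lie far right with drug differences of 0.55 and 0.28, and Hlf lies far left.

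Among transcription factors of the ISR, Atf4, Cebpg, Ddit3, Atf3 and Cebpb had no called response change, while Atf5, given below, was called higher. Atf4 (chr15:80255184-80257541, GRCm38) encodes the central factor. Its levels in replicates 1, 2 and 3, the order used throughout, were 241, 244 and 133 CPM in DMSO 2 h, 825, 869 and 816 in thapsigargin 2 h, 684, 608 and 681 in DMSO 6 h and 1559.9, 2042 and 2070.5 in thapsigargin 6 h. Drug and vehicle libraries did not overlap at either time, and the DMSO 6 h libraries lay between the DMSO 2 h and the drug libraries. The response was 4.06-fold at 2 h and 2.88-fold at 6 h, and the response change of -0.50 ± 0.32 (SE) had an adjusted p of 0.459.

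Cebpg encodes C/EBPgamma, the binding partner named in the title of the study. It was read at 32.1, 33.8 and 19.01 CPM in DMSO 2 h, 103, 105 and 85.8 in thapsigargin 2 h, 38.6, 38.1 and 37.8 in DMSO 6 h and 193, 167 and 161 in thapsigargin 6 h. All drug libraries lay above all vehicle libraries, and the response change was 0.39 ± 0.29 with an adjusted p of 0.528. For Ddit3, which encodes the proapoptotic factor CHOP, the levels were 7.13, 7.44 and 4.86 CPM in DMSO 2 h, 130, 137 and 128 in thapsigargin 2 h, 40.0, 28.0 and 98.3 in DMSO 6 h and 410, 1899 and 1300.4 in thapsigargin 6 h. Both 6 h groups were spread widely, the responses were 20.3-fold and 21.7-fold, and the response change of 0.09 ± 0.73 had an adjusted p of 0.977. Atf3 and Cebpb, further bZIP factors of the pathway, had response changes of 0.23 ± 0.35 and 0.58 ± 0.51 with adjusted p values of 0.810 and 0.627. The sign for Ddit3 differed between alternatives, and Ddit3 and Cebpb overlap the opposite-strand genes Mars and Tmem189, whose reads could be shared if strand was not used in counting.

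Over all 18 ISR factors and feedback genes, 4 response changes were called higher and 2 lower, beside 3.4% and 2.74% of all tested genes. The median response of the list was 2.01 at 2 h and 2.22 at 6 h. Chac1 (chr2:119351229-119354381), whose product degrades glutathione, had the larger of the downward changes. It was read at 4.51, 3.66 and 2.19 CPM in DMSO 2 h, 504, 513 and 481 in thapsigargin 2 h, 55.3, 40.9 and 76.3 in DMSO 6 h and 542, 834 and 816 in thapsigargin 6 h. The drug libraries were high at both times, and the vehicle libraries at 6 h all lay above those at 2 h. The response was therefore 144-fold at 2 h and 12.7-fold at 6 h, a response change of -3.51 ± 0.41 with an adjusted p of 0.000673. On the log2 scale the 6 h minus 2 h difference was 4.05 in DMSO and 0.55 in thapsigargin. Its promoter holds the same composite letters as those of Fgf21 and Avil, whose response changes had the opposite sign.

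Sesn2, which encodes sestrin 2, an inhibitor of mTORC1 activation, showed the same layout. Its levels were 11.6, 11.1 and 10.98 CPM in DMSO 2 h, 156, 162 and 165 in thapsigargin 2 h, 47.7, 37.6 and 57.9 in DMSO 6 h and 173, 207 and 204 in thapsigargin 6 h. DMSO differed by 2.09 over time and thapsigargin by 0.28, and the response change was -1.81 ± 0.24 with an adjusted p of 0.00123. Trib3, a pseudokinase that restrains ATF4, was read at 3.19, 3.44 and 1.21 CPM in DMSO 2 h, 189, 202 and 181 in thapsigargin 2 h, 20.0, 17.1 and 22.9 in DMSO 6 h and 443, 571 and 563 in thapsigargin 6 h. Its response change of -1.47 ± 0.42 was not called, with an adjusted p of 0.0598, and was called, at -1.13 with an adjusted p of 0.0122, without DMSO 2 h replicate 3. Of 9 alternatives other than leaving out 1 library, only 3 also left Trib3 uncalled. Over the 9 its change ranged from -1.53 to -1.02.

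The 4 ISR genes called higher were Fgf21, Vldlr, Ppp1r15a and Atf5, of which the last 2 were chosen for mention after their values were seen. Fgf21 (chr7:45613886-45615490) encodes a secreted hormone of metabolic stress. It was read at 0.193, 0.527 and 0.225 CPM in DMSO 2 h, 5.69, 6.64 and 5.69 in thapsigargin 2 h, 0.122, 0.187 and 0.0402 in DMSO 6 h and 51.5, 81.7 and 82.8 in thapsigargin 6 h. The drug libraries at 6 h were the highest, and the response change was 4.93 ± 0.60 with an adjusted p of 0.000788; the group total in DMSO 6 h was 11 counts, so this fold rests on few vehicle reads, and it was 4.34 without DMSO 2 h replicate 2. Ppp1r15a, which encodes the eIF2alpha phosphatase subunit GADD34, had means of 31.7, 127, 41.9 and 754 CPM in DMSO 2 h, thapsigargin 2 h, DMSO 6 h and thapsigargin 6 h. Its response change was 2.17 ± 0.38 with an adjusted p of 0.00609. Atf5, a further bZIP factor under the same translational control, had means of 48.2, 52.0, 118 and 413 CPM in that order and a response change of 1.69 ± 0.26 with an adjusted p of 0.00325.

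**Figure D3:**
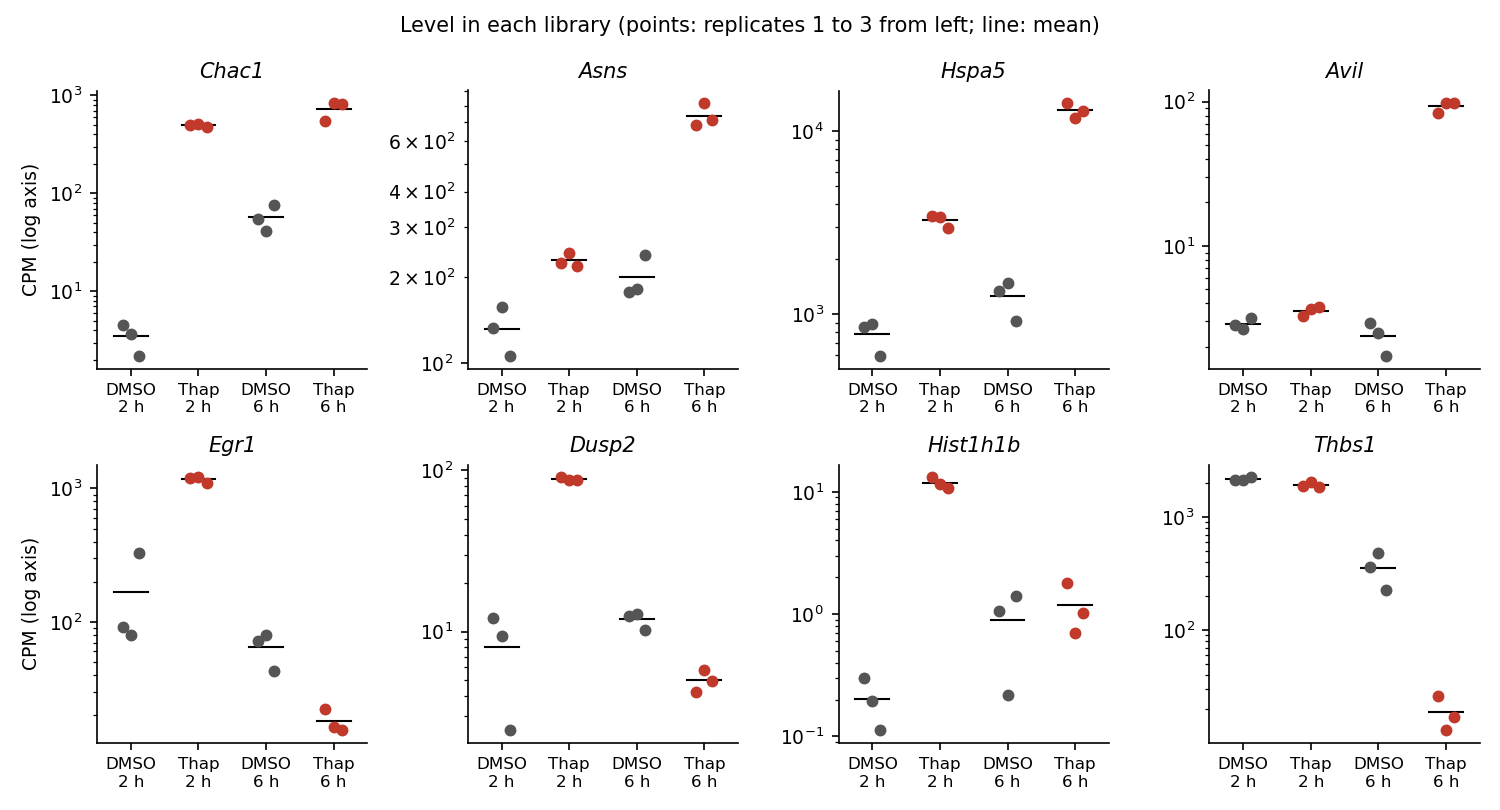
Each point is 1 library, with the normalised level in counts per megaread (CPM) on a log axis and the 4 groups on the horizontal axis, and the line is the group mean. Chac1 is high in both drug groups and has DMSO 6 h libraries of 40.9 to 76.3 CPM against 2.19 to 4.51 in DMSO 2 h, Asns and Hspa5 step up in each drug group, Avil stands out in thapsigargin 6 h, and Egr1, Dusp2 and Hist1h1b peak in thapsigargin 2 h. Thbs1 is lowest in thapsigargin 6 h.

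All calls among amino acid genes were upward: 7 of 16 genes of amino acid and one-carbon synthesis, 4 of 12 amino acid transporters and 7 of 20 cytosolic tRNA synthetases had a response change called higher, and 0 in these lists were called lower, beside 3.4% and 2.74% of all tested genes. The median response was 0.65 at 2 h and 1.62 at 6 h for synthesis, 1.04 and 1.61 for transporters and 0.41 and 1.29 for synthetases. The median response changes were 1.003, 0.79 and 0.80, against 0.05 over all genes. In these lists 0 genes had an unadjusted p under 0.05 downward and DESeq2 called 0 lower, while limma-voom with sample weights called 1 transporter lower. The counts called higher in the lists of synthesis, transporters and synthetases were 2, 2 and 1 with total-count scaling, 4, 2 and 3 with all 19 libraries and 12, 4 and 12 without both libraries that stand apart, DMSO 2 h replicate 3 by its mitochondrial share and thapsigargin 6 h replicate 1 by its length trend. The synthesis list held 4 without thapsigargin 2 h replicate 1 or 3.

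Asns (chr6:7675169-7693254) encodes asparagine synthetase. It was read at 133, 157 and 106 CPM in DMSO 2 h, 225, 244 and 219 in thapsigargin 2 h, 178, 182 and 241 in DMSO 6 h and 683, 817 and 715 in thapsigargin 6 h. Drug libraries lay above vehicle libraries at both times, by 1.74-fold at 2 h and 3.69-fold at 6 h. The response change of 1.09 ± 0.26 had an adjusted p of 0.0311, and the call was lost without any 1 of 9 of the libraries (adjusted p 0.0685 to 0.104), while the change without any 1 library stayed between 0.94 and 1.23. Pycr1, the last enzyme of proline synthesis, was read at 9.58, 8.44 and 11.7 CPM in DMSO 2 h, 11.2, 11.1 and 10.7 in thapsigargin 2 h, 16.4, 12.9 and 18.4 in DMSO 6 h and 59.1, 78.8 and 83.2 in thapsigargin 6 h. The groups overlapped at 2 h and were apart at 6 h, and the response change was 2.07 ± 0.28 with an adjusted p of 0.00141.

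Aldh1l2, a mitochondrial folate enzyme, was read at 76.3, 92.8 and 87.2 CPM in DMSO 2 h, 138, 150 and 127 in thapsigargin 2 h, 14.3, 18.4 and 13.5 in DMSO 6 h and 355, 128 and 135 in thapsigargin 6 h. Here the vehicle libraries were lower at 6 h and thapsigargin 6 h replicate 1 stood above its group. The response change was 3.05 ± 0.47 with an adjusted p of 0.00318, and 2.40 without that library, and the gene overlaps D10Wsu102e on the opposite strand. Cth, the cystathionine lyase that makes cysteine, had a response of 2.04 at 2 h and 4.27 at 6 h. Its response change of 2.23 ± 0.47 (adjusted p = 0.0155) lost its call without thapsigargin 2 h replicate 1 or 3 (adjusted p 0.0577 at most).

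Among transporters, Slc3a2 and Slc7a5 encode the heavy and light chains of the LAT1 exchanger for large neutral amino acids. Slc3a2 was read at 149, 155 and 113 CPM in DMSO 2 h, 406, 415 and 370 in thapsigargin 2 h, 259, 214 and 362 in DMSO 6 h and 2014, 3575 and 3318 in thapsigargin 6 h. Slc7a5 was read at 236, 251 and 329 CPM in DMSO 2 h, 483, 500 and 454 in thapsigargin 2 h, 186, 168 and 148 in DMSO 6 h and 998, 850 and 1022 in thapsigargin 6 h. For both chains the drug libraries lay above the vehicle libraries at each time and were highest at 6 h. The response changes were 1.90 ± 0.36 for Slc3a2 (adjusted p = 0.00963) and 1.70 ± 0.25 for Slc7a5 (adjusted p = 0.00228). Slc7a11, the cystine transporter that also pairs with Slc3a2, was read at 6.22, 8.63 and 7.16 CPM in DMSO 2 h, 34.4, 40.6 and 29.4 in thapsigargin 2 h, 5.35, 5.58 and 4.83 in DMSO 6 h and 80.3, 55.5 and 65.1 in thapsigargin 6 h. It was also apart at both times, with a response change of 1.43 ± 0.28 and an adjusted p of 0.0107. Its call was lost with all 19 libraries and with total-count scaling (adjusted p 0.117 at most). The fourth, Slc38a7, a lysosomal glutamine transporter, had a change of 1.01 ± 0.21 (adjusted p = 0.0134), which was not called without DMSO 6 h replicate 1 or thapsigargin 2 h replicate 3 (0.0562 and 0.0604).

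The synthetases named had smaller changes. Wars, for tryptophan, was read at 106, 112 and 81.8 CPM in DMSO 2 h, 129, 143 and 124 in thapsigargin 2 h, 166, 138 and 260 in DMSO 6 h and 533, 978 and 843 in thapsigargin 6 h. The groups were apart at both times, and the response change was 1.66 ± 0.38 with an adjusted p of 0.0230, a call lost without any 1 of 9 libraries. Nars and Gars, for asparagine and glycine, had response changes of 1.20 ± 0.30 and 1.11 ± 0.27 with adjusted p values of 0.0365 and 0.0292, and these calls were lost without any 1 of 8 and of 9 libraries. The 7 calls in this list came to 0 without any 1 thapsigargin 2 h library, to 1 without DMSO 2 h replicate 2, DMSO 6 h replicate 1 or thapsigargin 6 h replicate 3, to 2 without DMSO 2 h replicate 1 or DMSO 6 h replicate 2 and to 3 without thapsigargin 6 h replicate 2. Without both libraries that stand apart 12 were called.

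The calls among ER folding genes were upward as well. Of 22 ER chaperones and folding enzymes 9 were called higher and 0 lower, and of 26 genes of ER-associated degradation and ER export 4 were called higher and 0 lower, beside 3.4% of all tested genes called higher. The counts called higher were 4 and 1 with total-count scaling, 5 and 2 with all 19 libraries, 14 and 10 with length and GC offsets and 16 and 12 without both libraries that stand apart. The response change was above 0 in 22 of 22 and 26 of 26, against 8677 of the 16312 tested genes, and the median response was 0.31 at 2 h and 1.28 at 6 h in the first list and -0.15 and 0.76 in the second. Hspa5 (chr2:34771970-34777547) encodes BiP, the main ER chaperone. It was read at 856, 883 and 594 CPM in DMSO 2 h, 3456, 3381 and 2948 in thapsigargin 2 h, 1347, 1489.6 and 921 in DMSO 6 h and 14225, 11852 and 12942 in thapsigargin 6 h. Drug libraries lay far above vehicle libraries at both times, by 4.19-fold and then 10.4-fold. The response change of 1.31 ± 0.33 had an adjusted p of 0.0352, which rose to between 0.0501 and 0.122 without any 1 of 8 of the libraries and to 0.155 with all 19 libraries in the model.

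Pdia4 and Ero1l act in disulfide formation. Pdia4 was read at 165, 174 and 163 CPM in DMSO 2 h, 267, 239 and 226 in thapsigargin 2 h, 196, 221 and 116 in DMSO 6 h and 1054, 753 and 847 in thapsigargin 6 h. Ero1l was read at 66.1, 77.0 and 63.5 CPM in DMSO 2 h, 99.1, 108 and 94.3 in thapsigargin 2 h, 43.9, 48.9 and 40.8 in DMSO 6 h and 281, 185 and 203 in thapsigargin 6 h. In both genes the drug libraries were above the vehicle libraries at each time, with a wider gap at 6 h. The response changes were 1.77 ± 0.32 for Pdia4 (adjusted p = 0.00722) and 1.78 ± 0.25 for Ero1l (adjusted p = 0.00199). Pdia4 lost its call with all 19 libraries and with total-count scaling (adjusted p 0.0960 at most). Hsp90b1, the ER member of the HSP90 family, had a response of 0.30 at 2 h and 1.94 at 6 h and a response change of 1.63 ± 0.35 (adjusted p = 0.0177), which was not called without DMSO 6 h replicate 1 or any 1 thapsigargin 2 h library (0.0531 to 0.0654).

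Sel1l, the adaptor of the HRD1 ubiquitin ligase, was read at 128, 134 and 107 CPM in DMSO 2 h, 214, 204 and 177 in thapsigargin 2 h, 57.5, 65.1 and 39.4 in DMSO 6 h and 432, 238 and 275 in thapsigargin 6 h. The groups were apart at both times, and the response change was 1.86 ± 0.34 with an adjusted p of 0.00824. With total-count scaling Sel1l was not called (adjusted p 0.0569). Dnajb9, an ER cochaperone of BiP, had vehicle libraries of 20.1, 18.8 and 61.4 CPM at 2 h, and its response change of 2.99 ± 0.61 (adjusted p = 0.0132) was 2.20 without the third of them. Sec23b, a coat protein of ER export vesicles, and Sec63, a translocon partner, had changes of 1.20 ± 0.29 (adjusted p = 0.0288) and 0.90 ± 0.23 (adjusted p = 0.0417), and lost their calls without any 1 of 6 and of 10 libraries. Of 13 UPR sensors and membrane-bound factors 1 was called higher, Atf6, and 0 lower, beside 3.4% and 2.74% of all tested genes. The change of Atf6 was 1.57 ± 0.36 with an adjusted p of 0.0236. Atf6 lost its call without DMSO 6 h replicate 1 or any 1 thapsigargin 2 h library. With all 19 libraries, total-count scaling or the replicate block, 0 of the list were called. Without DMSO 6 h replicate 3 or thapsigargin 6 h replicate 1, 2 of the list were called. With 1 library left out, the number of chaperone genes called ranged from 3 without thapsigargin 2 h replicate 1 or 3 to 14 without DMSO 2 h replicate 3; it was 4 without thapsigargin 2 h replicate 2 or DMSO 6 h replicate 1 and 5 without DMSO 2 h replicate 2. The degradation list ranged from 2, without DMSO 2 h replicate 2, DMSO 6 h replicate 1 or any 1 thapsigargin 2 h library, to 10 without DMSO 2 h replicate 3.

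Of the SERCA pumps, thapsigargin's own targets, Atp2a2 and Atp2a3 were called higher, while Atp2a1 (SERCA1) was tested and not called. Atp2a2 encodes SERCA2 and was read at 551, 556 and 538 CPM in DMSO 2 h, 567, 543 and 517 in thapsigargin 2 h, 330, 383 and 237 in DMSO 6 h and 1066, 594 and 693 in thapsigargin 6 h. The 2 h groups overlapped, the 6 h groups did not, and the response change was 1.32 ± 0.33 with an adjusted p of 0.0343. Atp2a3 (SERCA3) was read at 1.16, 0.611 and 1.10 CPM in DMSO 2 h, 3.499, 3.40 and 3.87 in thapsigargin 2 h, 0.122, 0.125 and 0.483 in DMSO 6 h and 44.9, 42.4 and 45.6 in thapsigargin 6 h. Vehicle libraries were near the level of 3 counts, 0.0656 to 0.121 CPM, at 6 h, and the response change was 5.66 ± 0.53 with an adjusted p of 0.000188, or 6.53 without DMSO 6 h replicate 3. Itpr2, an ER calcium release channel, and Mcu, the mitochondrial calcium uniporter, were called at 0.95 (adjusted p = 0.0394) and 0.73 (adjusted p = 0.0308). In all 4 of 22 calcium genes were called higher and 0 lower, beside 3.4% and 2.74% of all tested genes. Downward, 2 calcium genes had an unadjusted p under 0.05 and DESeq2 called 1, and the median change was 0.04. Only Atp2a3 of these 4 kept its call without each single library: the list held 1 call without DMSO 2 h replicate 1 or 2, DMSO 6 h replicate 1, any 1 thapsigargin 2 h library or thapsigargin 6 h replicate 3, and 2 without DMSO 6 h replicate 2 or 3 or thapsigargin 6 h replicate 2. The adjusted p of Atp2a2 ranged from 0.0543 to 0.110 where its call was lost.

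The genes named next had the largest upward changes among called genes with at least 10 counts in each group and a mean of at least 5 CPM in 1 group, limits that leave out Car6, described with the near-0 genes. Elmo1, an activator of Rac signalling, was read at 1.18, 0.916 and 2.16 CPM in DMSO 2 h, 1.12, 1.22 and 0.644 in thapsigargin 2 h, 0.0917, 0.249 and 0.0804 in DMSO 6 h and 19.1, 10.2 and 12.1 in thapsigargin 6 h. The 2 h groups overlapped, and at 6 h the vehicle libraries were lower and the drug libraries higher than at 2 h. Its response change of 7.06 ± 0.67 had an adjusted p of 0.000188, and it was 7.75 without DMSO 6 h replicate 2. Avil (chr10:127000709-127020994) encodes advillin, an actin-severing protein of the villin family. Its libraries held 2.83, 2.66 and 3.17 CPM in DMSO 2 h, 3.26, 3.64 and 3.76 in thapsigargin 2 h, 2.90, 2.49 and 1.73 in DMSO 6 h and 82.8, 97.5 and 97.1 in thapsigargin 6 h. The vehicle libraries overlapped between the times, the response went from 1.23-fold to 38.7-fold, and the response change was 4.98 ± 0.29 with an adjusted p of 7.88e-06. Avil shares exon sequence with Tsfm on the opposite strand.

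Prg4, lubricin of joint surfaces, had a response change of 5.41 ± 0.86 (adjusted p = 0.00350) and was read at 14.6 to 24.6 CPM in thapsigargin 6 h against 0.397 to 0.804 in DMSO 6 h; the change was 4.12 without DMSO 2 h replicate 3, which had 17.7 CPM, and the gene overlaps Tpr on the opposite strand. Tfcp2l1, a transcription factor of the grainyhead family, was at 14.0 to 22.2 CPM in thapsigargin 6 h against 0.0623 to 0.362 in DMSO 6 h and changed by 5.14 ± 0.88 (adjusted p = 0.00523), or by 4.49 without DMSO 2 h replicate 2 and 6.00 without DMSO 6 h replicate 3. Cox6a2, the muscle form of a cytochrome oxidase subunit, was at 15.4, 50.04 and 34.6 CPM in thapsigargin 6 h and at 0 to 0.201 CPM in the 6 vehicle libraries. Its change of 5.17 ± 1.08 (adjusted p = 0.0148) was not called without DMSO 2 h replicate 1 or 3 (adjusted p 0.0942 and 0.0708). Sspo, which encodes SCO-spondin, was at 19.4, 24.6 and 24.8 CPM in thapsigargin 6 h. Its response change of 5.39 ± 1.27 (adjusted p = 0.0277) was 0.48 (adjusted p = 0.819) without DMSO 2 h replicate 1, the only DMSO 2 h library with reads of it, so its 2 h response is not measured. Gdap1l1 and Vwf, von Willebrand factor, changed by 4.88 ± 0.91 (adjusted p = 0.00843) and 4.43 ± 0.72 (adjusted p = 0.00414), with 4.04 for Gdap1l1 without DMSO 2 h replicate 3 and 5.04 for Vwf without DMSO 6 h replicate 1.

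**Figure D4:**
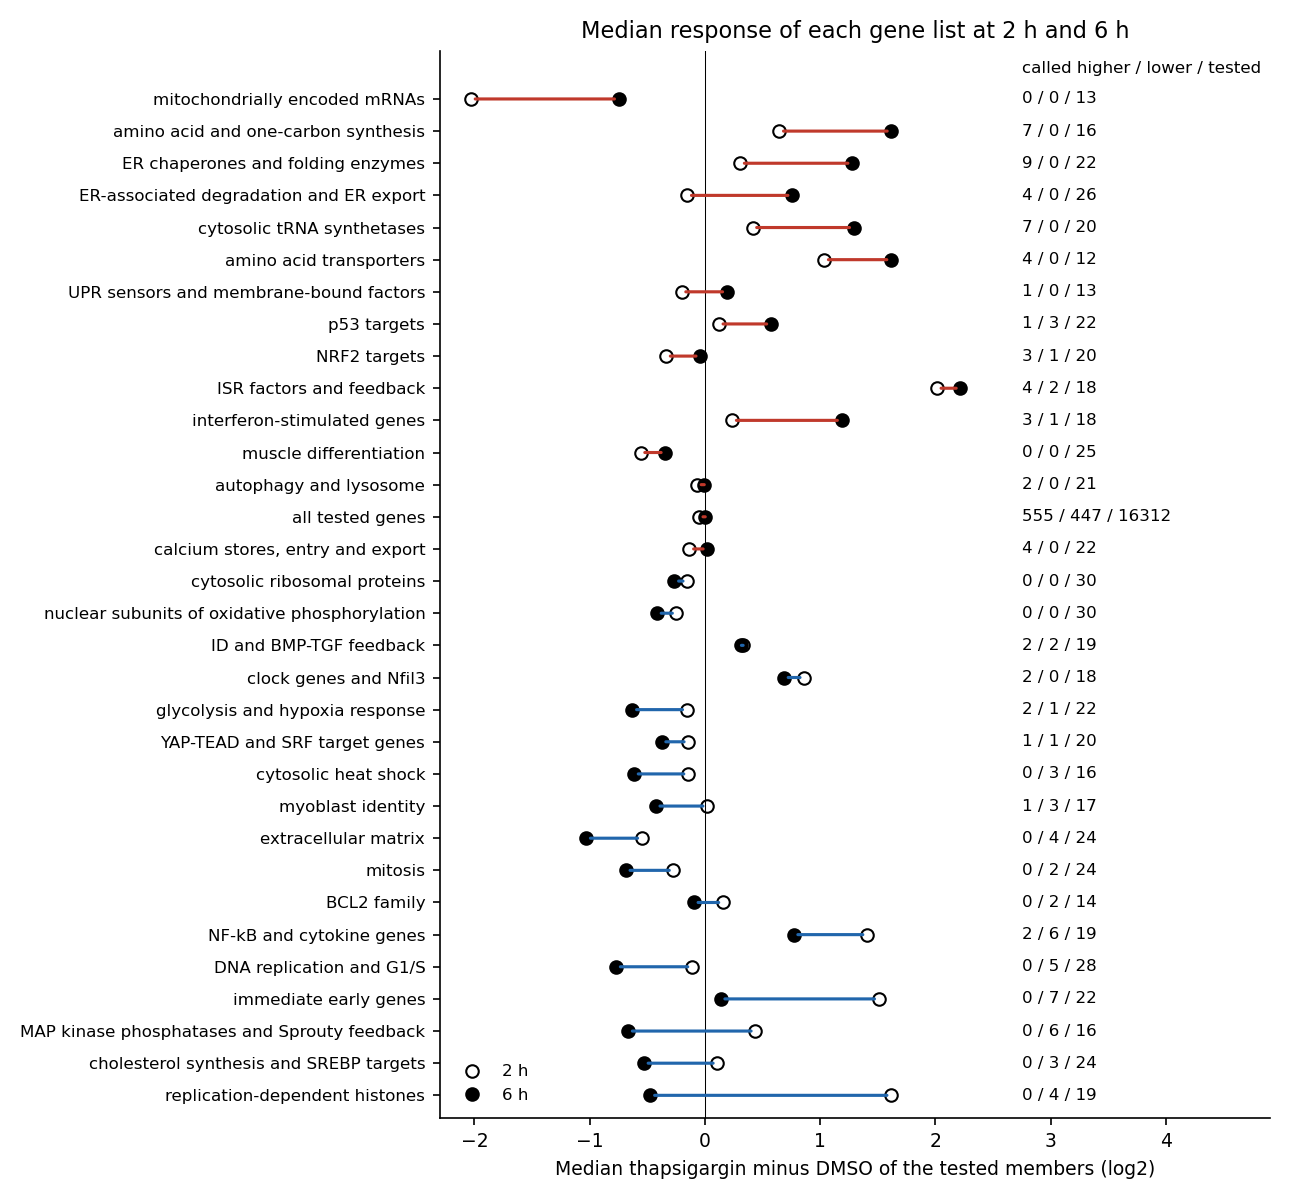
For each gene list with at least 10 tested members, the open circle is the median response at 2 h and the filled circle that at 6 h, in log2 units, with the numbers called higher, called lower and tested at the right. Amino acid, tRNA synthetase and ER lists move right, immediate early, MAP kinase feedback, histone and cholesterol lists move left, and the median over all tested genes moves from -0.05 to 0.00. The mitochondrially encoded mRNAs move furthest right with 0 of 13 called.

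Of 22 immediate early genes, 7 response changes were called lower and 0 higher, beside 2.74% of all tested genes called lower, and the median response was 1.51 at 2 h and 0.14 at 6 h. Egr1, a zinc finger factor of growth signalling, was read at 91.8, 80.1 and 328 CPM in DMSO 2 h, 1192, 1211 and 1106 in thapsigargin 2 h, 71.4, 79.7 and 42.6 in DMSO 6 h and 22.2, 16.4 and 15.4 in thapsigargin 6 h. Drug libraries were above vehicle at 2 h and below vehicle at 6 h, with DMSO 2 h replicate 3 above the other vehicle libraries. The response went from 7.03-fold higher to 3.58-fold lower, a change of -4.65 ± 0.67 with an adjusted p of 0.00204, and -5.61 without that library.

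Egr2 and Egr3, of the same family, followed. Egr2 was read at 31.6, 27.9 and 57.5 CPM in DMSO 2 h, 161, 150 and 139 in thapsigargin 2 h, 5.77, 6.67 and 2.37 in DMSO 6 h and 1.24, 1.16 and 0.800 in thapsigargin 6 h. Egr3 was read at 47.7, 45.9 and 88.8 CPM in DMSO 2 h, 186, 188 and 169 in thapsigargin 2 h, 9.78, 17.4 and 7.56 in DMSO 6 h and 3.28, 1.48 and 1.57 in thapsigargin 6 h. In both, the order of drug and vehicle was reversed between the times, with no overlap at either. The response changes were -4.15 ± 0.53 for Egr2 (adjusted p = 0.000962) and -4.02 ± 0.54 for Egr3 (adjusted p = 0.00141). The other 4 called, chosen for mention after their values were seen, were Fosb, Nr4a1, Fos and Junb, with response changes of -3.96, -3.33, -2.74 and -2.13. Npas4, a calcium-induced factor outside the list, was at 2.97 to 4.86 CPM in thapsigargin 2 h, 5.20 to 7.84 in DMSO 6 h and 0.152, 0 and 0.286 in thapsigargin 6 h. Its change of -4.52 ± 0.76 had an adjusted p of 0.00498, and it was -5.33 without thapsigargin 6 h replicate 3. At 2 h its groups overlapped, with 4.73, 4.77 and 10.6 CPM in DMSO.

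MAP kinase feedback genes, which encode phosphatases and Sprouty inhibitors of ERK signalling, gave 6 of 16 called lower and 0 higher. Of all tested genes 2.74% were called lower. The median response of the list was 0.44 at 2 h and -0.67 at 6 h. Dusp2 was read at 12.2, 9.33 and 2.44 CPM in DMSO 2 h, 90.6, 87.3 and 86.9 in thapsigargin 2 h, 12.5, 12.9 and 10.2 in DMSO 6 h and 4.22, 5.75 and 4.94 in thapsigargin 6 h. It was 11.03-fold higher under drug at 2 h and 2.39-fold lower at 6 h, and the response change was -4.72 ± 0.60 with an adjusted p of 0.000961. Dusp6 was read at 148, 141 and 127 CPM in DMSO 2 h, 201, 210 and 206 in thapsigargin 2 h, 61.1, 85.5 and 33.9 in DMSO 6 h and 21.99, 8.82 and 11.2 in thapsigargin 6 h, and Spry2 at 70.2, 63.3 and 36.7, 130, 138 and 125, 37.2, 40.9 and 26.9, and 25.7, 15.7 and 21.1 in the same groups. The same crossing was seen in both, with no overlap between drug and vehicle at either time. Their changes were -2.67 ± 0.49 (adjusted p = 0.00784) and -1.95 ± 0.37 (adjusted p = 0.00860).

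Further large downward changes fell outside these lists. Tcim, which encodes a regulator of Wnt signalling, was read at 5.78, 3.97 and 4.16 CPM in DMSO 2 h, 50.6, 39.2 and 53.9 in thapsigargin 2 h, 11.6, 10.9 and 10.9 in DMSO 6 h and 5.03, 5.72 and 7.05 in thapsigargin 6 h. Kcnj2, an inward rectifier potassium channel, was read at 8.91, 8.49 and 8.37 CPM in DMSO 2 h, 19.8, 19.3 and 23.8 in thapsigargin 2 h, 4.92, 5.33 and 2.29 in DMSO 6 h and 0.609, 0.600 and 0.543 in thapsigargin 6 h. Both went from higher to lower under the drug, by -4.28 ± 0.30 (adjusted p = 2.31e-05) for Tcim and -4.12 ± 0.40 (adjusted p = 0.000205) for Kcnj2. Slco4a1, an organic anion transporter, had a response of 0.61 at 2 h and -3.44 at 6 h, a change of -4.05 ± 0.44 with an adjusted p of 0.000365.

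Of 19 tested NF-kB and cytokine genes 6 were called lower and 2 higher, beside 2.74% and 3.4% of all tested genes. The median response of the list was 1.41 at 2 h and 0.77 at 6 h. Cxcl1, a neutrophil chemokine, was read at 3.41, 3.25 and 2.39 CPM in DMSO 2 h, 31.8, 30.5 and 24.1 in thapsigargin 2 h, 2.35, 3.27 and 1.29 in DMSO 6 h and 2.72, 1.76 and 2.11 in thapsigargin 6 h. The groups were apart at 2 h and overlapped at 6 h, and the change was -3.32 ± 0.43 with an adjusted p of 0.00116. Il6 went the other way, at 2.67 ± 0.54 with an adjusted p of 0.0131, on levels of 1.59 to 2.62 CPM in thapsigargin 6 h and 0.0804 to 0.343 in DMSO 6 h; without thapsigargin 2 h replicate 2 its adjusted p was 0.0502. Of 18 tested interferon-stimulated genes 3 were called higher, Ifit1, Isg20 and Ifit3, at 3.38 ± 0.64, 2.65 ± 0.42 and 2.13 (adjusted p 0.00911, 0.00340 and 0.0493), and Irf1, an interferon regulatory factor, was called lower at -2.15 ± 0.37 (adjusted p = 0.00538). Ifit1 was at 3.71 to 4.55 CPM in thapsigargin 6 h and at most 2.01 in any other library, and it has close relatives among which reads may be split. Ifit3 kept its call only without DMSO 6 h replicate 3 when 1 library was left out, with adjusted p values up to 0.138. The interferon list held 2 calls downward without DMSO 6 h replicate 3 or thapsigargin 6 h replicate 1.

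**Figure D5:**
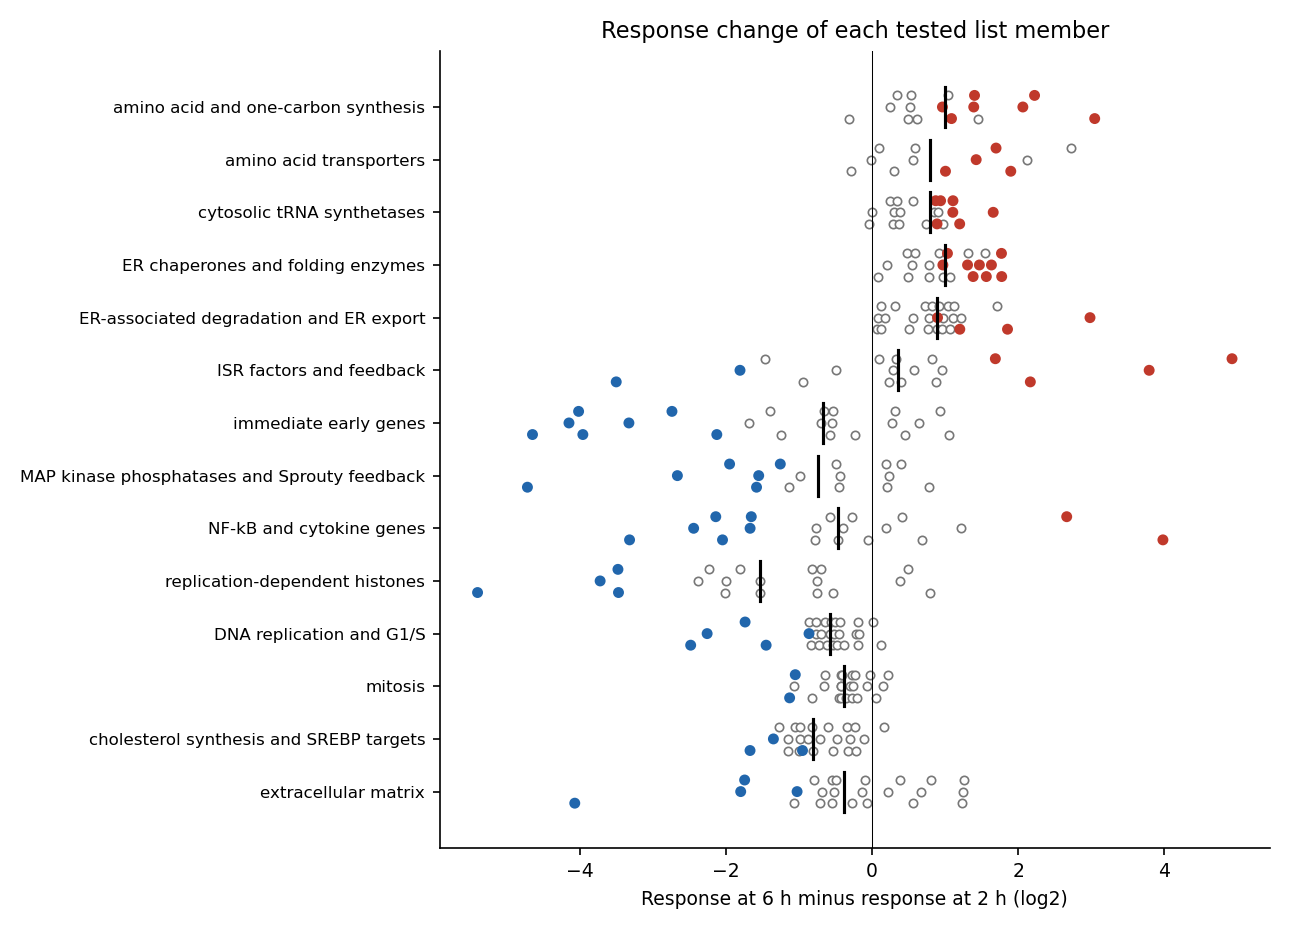
Each point is the log2 response change of a tested member of 14 gene lists, filled where the change was called and open where not, and the bar is the median of the list. All 22 ER chaperones and all 26 genes of ER-associated degradation and export lie above 0. In the cholesterol list 1 of 24 members lies above 0, and in the replication list 2 of 28.

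Of 28 replication and G1/S genes 5 response changes were called lower and 0 higher, beside 2.74% of all tested genes called lower, and 2 of the 28 changes were above 0. The median response was -0.11 at 2 h and -0.77 at 6 h. Ccne1 encodes cyclin E1, which drives entry into S phase, and was read at 34.1, 34.1 and 48.5 CPM in DMSO 2 h, 22.9, 22.3 and 23.7 in thapsigargin 2 h, 57.3, 54.9 and 57.8 in DMSO 6 h and 6.15, 5.22 and 6.51 in thapsigargin 6 h. E2f2, an activating E2F factor, was read at 31.3, 30.3 and 28.0 CPM in DMSO 2 h, 30.1, 28.3 and 24.5 in thapsigargin 2 h, 47.8, 49.1 and 54.9 in DMSO 6 h and 10.9, 9.49 and 8.88 in thapsigargin 6 h. For both the vehicle libraries were highest and the drug libraries lowest at 6 h, while at 2 h E2f2 overlapped between the groups. The changes were -2.49 ± 0.25 (adjusted p = 0.000211) and -2.26 ± 0.22 (adjusted p = 0.000205). Uhrf1, Ccnd1 and Mcm5, a maintenance methylation factor, cyclin D1 and a helicase subunit, changed by -1.74 ± 0.31 (adjusted p = 0.00687), -1.45 ± 0.31 (0.0168) and -0.86 ± 0.22 (0.0391). The list held 3 calls without thapsigargin 2 h replicate 2 or 3 or thapsigargin 6 h replicate 3 and 3 with total-count scaling. Of 24 mitosis genes 2 were called lower: Kif2c, a microtubule depolymerase, at -1.05 ± 0.17 (adjusted p = 0.00444), and Aurkb, a mitotic kinase, at -1.13 ± 0.25 (adjusted p = 0.0181), of which Aurkb lost its call without DMSO 6 h replicate 1 or any 1 thapsigargin 2 h library.

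Replication-dependent histones had the lowest median change, -1.54, with median responses of 1.61 at 2 h and -0.47 at 6 h. Of 19 tested 4 were called lower and 0 higher, beside 2.74% of all tested genes called lower. Most histone mRNAs of this class lack a poly(A) tail, so poly(A) libraries hold only part of them. Hist1h1b, a linker histone, was read at 0.303, 0.194 and 0.112 CPM in DMSO 2 h, 13.1, 11.52 and 10.7 in thapsigargin 2 h, 1.07, 0.218 and 1.41 in DMSO 6 h and 1.80, 0.706 and 1.03 in thapsigargin 6 h. Hist1h1d was read at 1.27, 0.4997 and 0.899 CPM in DMSO 2 h, 14.9, 12.7 and 15.3 in thapsigargin 2 h, 1.19, 0.467 and 1.53 in DMSO 6 h and 1.57, 1.59 and 1.40 in thapsigargin 6 h. The thapsigargin 2 h libraries stood alone, and the 6 h groups overlapped. The changes were -5.41 ± 0.80 (adjusted p = 0.00231) for Hist1h1b and -3.48 ± 0.55 (adjusted p = 0.00350) for Hist1h1d. Hist1h1a and Hist1h1e were called at -3.73 ± 0.91 (adjusted p = 0.0308) and -3.48 ± 0.85 (adjusted p = 0.0309) and lost their calls without 1 of 7 and 1 of 8 libraries, and without DMSO 6 h replicate 3 their changes were -2.68 and -2.27. The 4 genes resemble each other and may share reads. The list held 2 calls without DMSO 2 h replicate 2, any 1 thapsigargin 2 h library or thapsigargin 6 h replicate 3.

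Of 24 matrix genes 4 response changes were called lower and 0 higher, beside 2.74% of all tested genes called lower, and 8 of the 24 changes were above 0. The median response of the list was -0.55 at 2 h and -1.03 at 6 h. Thbs1 encodes thrombospondin 1, a matrix protein that activates TGF-beta. Its libraries held 2123, 2130.3 and 2253 CPM in DMSO 2 h, 1892, 2059.6 and 1847 in thapsigargin 2 h, 363, 480 and 226 in DMSO 6 h and 26.5, 13.1 and 16.9 in thapsigargin 6 h. Vehicle libraries were lower at 6 h and drug libraries lower again, so the response went from 1.12-fold to 18.9-fold lower. The response change was -4.07 ± 0.42 with an adjusted p of 0.000297. Col6a1, a chain of collagen VI, was read at 146, 147 and 157 CPM in DMSO 2 h, 64.4, 74.7 and 66.6 in thapsigargin 2 h, 77.0, 71.9 and 55.1 in DMSO 6 h and 9.19, 8.12 and 10.4 in thapsigargin 6 h. The groups were apart at both times, and the change was -1.75 ± 0.23 with an adjusted p of 0.00136. Col8a1 and Thbs2 were called at -1.80 ± 0.35 (adjusted p = 0.0108) and -1.03 ± 0.26 (0.0393), and the call of Thbs2 was lost without any 1 of 9 libraries (adjusted p 0.0845 to 0.113). Col8a1 was not called with all 19 libraries (adjusted p 0.0575). Upward, 4 matrix genes had an unadjusted p under 0.05 and DESeq2 called 2. Without DMSO 2 h replicate 3, 8 matrix genes were called lower.

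Calls among targets of YAP and of TGF-beta were few and went both ways. Ccn2, a YAP and TGF-beta target, was read at 364, 353 and 367 CPM in DMSO 2 h, 451, 522 and 603 in thapsigargin 2 h, 85.9, 95.7 and 81.8 in DMSO 6 h and 57.7, 51.5 and 56.8 in thapsigargin 6 h. Drug libraries were above vehicle at 2 h and below it at 6 h, and the change was -1.21 ± 0.22 with an adjusted p of 0.00683. Tgfb3, a TGF-beta ligand, was called lower at -1.35 ± 0.19 (adjusted p = 0.00194), while its relative Tgfb2 was called higher at 1.64 ± 0.44 (adjusted p = 0.0465), as was Nog, a BMP antagonist, at 2.28 ± 0.35 (adjusted p = 0.00317). Nog was not called with all 19 libraries (adjusted p 0.0935). Over the lists, 1 of 20 YAP and SRF targets was called each way, and 2 of 19 ID and BMP or TGF-beta feedback genes each way. Of all tested genes 3.4% were called higher and 2.74% lower. Of the 20 YAP and SRF targets 4 had a change above 0. At an unadjusted p under 0.05, 6 of them were lower and 1 higher, against 5 lower and 2 higher in the feedback list. The Tgfb2 call, which stands in both lists, was lost without any 1 of 8 libraries, with adjusted p values of 0.0731 to 0.119, and 2 YAP and SRF targets were called lower without thapsigargin 6 h replicate 2.

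Of 17 tested myoblast identity genes 3 were called lower and 1 higher, beside 2.74% and 3.4% of all tested genes. Pax7, the satellite cell factor, was read at 4.26, 4.69 and 5.56 CPM in DMSO 2 h, 5.01, 5.26 and 4.48 in thapsigargin 2 h, 2.08, 1.90 and 2.17 in DMSO 6 h and 0.533, 0.247 and 0.571 in thapsigargin 6 h. Myf5, a myogenic determination factor, was read at 31.4, 34.7 and 50.8 CPM in DMSO 2 h, 87.8, 96.4 and 73.0 in thapsigargin 2 h, 17.3, 25.5 and 14.5 in DMSO 6 h and 274, 131 and 135 in thapsigargin 6 h. Pax7 overlapped between the groups at 2 h and was lower under drug at 6 h, while Myf5 was higher under drug at both times. The changes were -2.18 ± 0.38 (adjusted p = 0.00598) for Pax7 and 2.10 ± 0.45 (adjusted p = 0.0160) for Myf5. Msc, a repressor related to them, was called at -2.73 ± 0.60 (adjusted p = 0.0192). With all 19 libraries in the model, Pax7 lost its call (adjusted p 0.266). The call of Myf5 was lost without DMSO 6 h replicate 1 or thapsigargin 2 h replicate 1 or 3, with adjusted p values of 0.0504 to 0.0600, and that of Msc without DMSO 6 h replicate 1, thapsigargin 2 h replicate 1 or 2 or thapsigargin 6 h replicate 3. Of 25 tested muscle differentiation genes edgeR called 0, with 5 at an unadjusted p under 0.05, all upward. DESeq2 called 2 and limma-voom with sample weights 12 higher and 2 lower, and edgeR called 1 without DMSO 6 h replicate 2 or thapsigargin 6 h replicate 1.

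Cholesterol synthesis genes and SREBP targets had a response of 0.11 at 2 h and -0.53 at 6 h in the median. Of the 24 genes 3 were called lower and 0 higher, beside 2.74% of all tested genes called lower. Dhcr7, the last enzyme of the pathway, was read at 30.6, 31.1 and 31.0 CPM in DMSO 2 h, 24.6, 24.1 and 24.9 in thapsigargin 2 h, 40.5, 37.4 and 30.7 in DMSO 6 h and 9.35, 7.94 and 9.77 in thapsigargin 6 h. The gap between drug and vehicle was wider at 6 h, and the change was -1.67 ± 0.22 with an adjusted p of 0.00123. Acat2 and Srebf1 were called at -1.35 (adjusted p = 0.0257) and -0.95 (adjusted p = 0.0219), and both were among the calls lost without DMSO 6 h replicate 1 or any 1 thapsigargin 2 h library, which left 1. The list held 6 without DMSO 6 h replicate 3 or thapsigargin 6 h replicate 1 and 8 without both libraries that stand apart.

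Cytosolic heat shock genes gave 3 of 16 called lower and 0 higher, beside 2.74% of all tested genes called lower. Dnajb1, a cochaperone of HSP70, was read at 92.4, 91.9 and 66.4 CPM in DMSO 2 h, 135, 135 and 140 in thapsigargin 2 h, 145, 144 and 135 in DMSO 6 h and 70.1, 71.4 and 74.0 in thapsigargin 6 h. Its order was reversed between the times, with a change of -1.69 ± 0.22 and an adjusted p of 0.00104. Hspa1b, which has a near-identical copy in Hspa1a, and Hsph1 were called at -1.84 ± 0.37 (adjusted p = 0.0127) and -1.22 (adjusted p = 0.0301), and the call of Hsph1 was lost without any 1 of 9 libraries (adjusted p 0.0608 to 0.0963). In this list 1 gene had an unadjusted p under 0.05 in the upward direction, and DESeq2 called 5 lower and 0 higher.

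Among 14 tested BCL2 family genes 2 were called lower and 0 higher, beside 2.74% and 3.4% of all tested genes. Bcl2l11 encodes the proapoptotic protein BIM and was read at 24.3, 24.2 and 19.2 CPM in DMSO 2 h, 77.6, 75.2 and 84.9 in thapsigargin 2 h, 15.6, 14.5 and 12.8 in DMSO 6 h and 13.6, 12.8 and 13.7 in thapsigargin 6 h. Its response was seen at 2 h, the 6 h groups overlapped, and the change was -1.91 ± 0.22 with an adjusted p of 0.000558. Bcl2l1, which encodes BCL-XL, was called at -0.85 (adjusted p = 0.0188), a call lost without DMSO 2 h replicate 2, DMSO 6 h replicate 1 or any 1 thapsigargin 2 h library. Of 22 p53 targets 3 were called lower, Sesn2 as above, Btg2 at -1.41 (adjusted p = 0.0441) and Sesn1 at -1.16 (adjusted p = 0.0362), and Rrm2b, a ribonucleotide reductase subunit, was called higher at 2.21 ± 0.45 (adjusted p = 0.0136). The lower p53 calls came to 1 without any 1 of 8 of the libraries, and the upward ones to 0 without thapsigargin 2 h replicate 3 and 2 without thapsigargin 6 h replicate 1. In the p53 list 16 of the 22 changes were above 0, with a median of 0.36. At an unadjusted p under 0.05, 5 were higher and 3 lower, and DESeq2 called 3 each way.

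NRF2 targets, the genes of oxidative defence, gave 3 of 20 called higher and 1 lower, beside 3.4% and 2.74% of all tested genes. Hmox1, heme oxygenase 1, was read at 114, 127 and 145 CPM in DMSO 2 h, 118, 125 and 127 in thapsigargin 2 h, 46.9, 44.0 and 37.4 in DMSO 6 h and 603, 544 and 645 in thapsigargin 6 h. The 2 h groups overlapped and the 6 h groups were far apart, with a response change of 3.86 ± 0.23 and an adjusted p of 7.88e-06. Slc7a11, given above, and Gsta4 at 1.38 (adjusted p = 0.0367, with 0.0723 to 0.108 without any 1 of 9 libraries) were the others called higher, and Gsr, glutathione reductase, was called lower at -0.78 (adjusted p = 0.0489), with up to 0.136 without any 1 library other than DMSO 2 h replicate 3 or thapsigargin 6 h replicate 1. Of 21 autophagy and lysosome genes the receptors Sqstm1 and Optn were called higher, at 1.65 ± 0.29 (adjusted p = 0.00568) and 1.77 ± 0.24 (adjusted p = 0.00149). Sqstm1, p62, was read at 761, 766 and 466 CPM in DMSO 2 h, 947, 973 and 918 in thapsigargin 2 h, 606, 598 and 509 in DMSO 6 h and 2429.7, 2587 and 2618 in thapsigargin 6 h, apart at both times.

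Clock genes gave 2 of 18 called higher and 0 lower, beside 3.4% and 2.74% of all tested genes. Downward, 4 clock genes had an unadjusted p under 0.05 and DESeq2 called 2. The number called lower was 3 without DMSO 2 h replicate 3 and 2 without DMSO 6 h replicate 3 or thapsigargin 6 h replicate 1. Hlf, a clock output factor, was read at 2.42, 2.28 and 4.13 CPM in DMSO 2 h, 3.78, 3.40 and 3.30 in thapsigargin 2 h, 0.275, 0.218 and 0.282 in DMSO 6 h and 4.60, 3.46 and 2.97 in thapsigargin 6 h. Only the DMSO 6 h libraries stood apart: over time DMSO differed by -3.50 and thapsigargin by 0.07, and the response change was 3.57 ± 0.43 with an adjusted p of 0.000773. Cry2, a clock repressor, was called at 1.63 ± 0.27 (adjusted p = 0.00446). Of 22 glycolysis and hypoxia genes Ndrg1 and Pfkp were called higher, at 2.14 ± 0.39 (adjusted p = 0.00759) and 0.71 (adjusted p = 0.0497), and Egln3, an oxygen sensor, lower at -1.48 (adjusted p = 0.0223). The call of Pfkp, which overlaps Pitrm1 on the opposite strand, was lost without any 1 library other than DMSO 2 h replicate 3 or thapsigargin 6 h replicate 1, and that of Egln3 without any 1 of 7 libraries, and 2 of the list were called lower without DMSO 2 h replicate 3.

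edgeR called 0 of 30 cytosolic ribosomal protein genes and 0 of 30 nuclear subunits of oxidative phosphorylation. It also called 0 of 13 mitochondrially encoded mRNAs, beside 6.14% of all tested genes called in either direction. In each of these lists 0 genes had an unadjusted p under 0.05. DESeq2 also called 0 in each. limma-voom with sample weights called 30 of the ribosomal genes and 18 of the nuclear subunits higher, against medians in edgeR that were below 0, so the data give no direction for these lists. The median change was -0.12, -0.18 and 1.36, and for the last of these the median response was -2.03 at 2 h and -0.75 at 6 h. The mitochondrial share of 15.8% in DMSO 2 h replicate 3 enters the 2 h response of these mRNAs, and its part in their median was not tested.

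Genes with fewer than 10 counts in a group are given by counts and levels only. Car6, a secreted carbonic anhydrase, had 8 counts in DMSO 2 h, 190 in thapsigargin 2 h, 6 in DMSO 6 h and 13233 in thapsigargin 6 h, where it stood at 91.1, 166 and 141 CPM. Vldlr, a lipoprotein receptor of the ISR list, was read at 1.43, 1.72 and 1.88 CPM in DMSO 2 h, 7.26, 8.28 and 6.58 in thapsigargin 2 h, 0, 0.0935 and 0.0804 in DMSO 6 h and 4.39, 3.95 and 2.54 in thapsigargin 6 h. Its drug level was lower at 6 h than at 2 h and its DMSO 6 h total was 5 counts, so the vehicle was near 0 there. Cd74, the invariant chain, had 9, 61, 11 and 1544 counts in the groups in the same order, Ptx3, a pattern recognition protein, 16, 152, 6 and 1059, and Cxcl10, a chemokine, 47, 231, 5 and 414. In the other direction, Dmp1, a bone matrix protein, had 382, 174, 129 and 4 counts and Cd163, a scavenger receptor, 339, 208, 51 and 6. The call of Ptx3 was lost without any 1 of 8 libraries (adjusted p 0.0520 to 0.211), with all 19 libraries and without both libraries that stand apart. Those of Cd163 and Cd74 were lost without any 1 of 10 and of 2 libraries, and Cxcl10 overlaps Art3 on the opposite strand.

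Among markers of other cell types, the endothelial and macrophage ones summed to at most 38.4 CPM in any library. Epithelial, adipocyte and osteoblast markers reached higher sums. Their calls stand beside 3.4% of all tested genes called higher and 2.74% called lower. The summed level of 8 endothelial markers was 16.9 to 20.98 CPM in DMSO 2 h, 14.6 to 15.4 in thapsigargin 2 h, 2.81 to 3.55 in DMSO 6 h and 11.47 to 13.6 in thapsigargin 6 h. Pecam1, Tie1 and Emcn were too low to be tested, and Tek and Vwf were called higher of 5 tested, Tek at 2.80 ± 0.56 with an adjusted p of 0.0117. The 8 adipocyte markers summed to 63.2 to 81.3, 71.5 to 80.1, 33.1 to 39.7 and 85.9 to 99.5 CPM in the same order, and 3 of 5 tested were called higher. These were Pparg at 1.59 ± 0.35 (adjusted p = 0.0193, with 0.0589 to 0.0722 without any 1 of 3 libraries), Lpl and Cd36. Lpl changed by 1.31 ± 0.23 (adjusted p = 0.00656) and was not called with length and GC offsets (adjusted p 0.0690). Cd36 had 43, 29, 0 and 83 counts. Adipoq, Plin1 and Lep were too low to be tested, and 1 marker was called lower without DMSO 2 h replicate 1. The 8 macrophage markers summed to at most 38.4 CPM in any library, with 0 of 4 tested called by edgeR or DESeq2 and 0 at an unadjusted p under 0.05, and Ptprc, Adgre1, Itgam and C1qa were not testable. The 10 epithelial markers summed to 35.4 to 43.8 and 38.6 to 40.2 CPM at 2 h and to 84.9 to 167 and 63.0 to 132 at 6 h, with 0 of 8 tested called by edgeR, 3 at an unadjusted p under 0.05, 2 called by DESeq2, 1 called by edgeR without DMSO 6 h replicate 3, and Epcam and Cldn7 too low. The 8 osteoblast markers, several of them matrix genes of mesenchymal cells at large, summed to 2766 to 3709 CPM in DMSO 2 h, 1819 to 1925 in thapsigargin 2 h, 2076 to 4103 in DMSO 6 h and 1605.0 to 2174 in thapsigargin 6 h, with Dmp1 alone called of 6 tested and Bglap and Ibsp too low. The 8 tested epithelial markers had a median response of 1.91 at 2 h and 2.81 at 6 h, with 5 response changes above 0. The part of the markers of other cell types in the response changes was not tested.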

How the data were processed

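The series holds 19 poly(A) RNA libraries of C2C12 cells, of which the 12 of the DMSO and thapsigargin groups at 2 and 6 h, 3 in each, entered the model. The deposited files hold raw counts of reads per gene and library as whole numbers. Per the submitters' processing notes, Trim Galore, STAR 2.5.3a, bedtools 2.31.0, DESeq2 and the build mm10 were used; for the counting program, its strand setting and its annotation, no statement was given in the sources used here. Each file ends with 5 lines of unassigned reads, 13.7% to 20.6% of the listed reads in these libraries, which were left out. Of 55401 identifiers 55141 matched GENCODE M21 (54349 with the version).

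Counts were scaled by TMM, filtered with filterByExpr by group and fitted with edgeR 4.0.16 and limma 3.58.1 in R 4.3.3: 1 quasi-likelihood model with a mean per group, no replicate block, 8 residual degrees of freedom and a biological coefficient of variation of 0.283. The contrast was the difference of differences, two-sided, with Benjamini-Hochberg adjustment over all 16312 genes and a threshold of 0.05. SE was derived from the test, as the absolute log2 difference divided by the square root of the quasi-likelihood F statistic. Plots and tables used Python 3.11.15, pandas 2.3.3, numpy 2.4.6 and matplotlib 3.10.9. The scripts were tested on simulated data.

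The 36 gene lists, the comparison and the genes named were chosen with earlier results of these data known. The genes named are a panel of 10, the 10 highest and 10 lowest changes among called genes with at least 10 counts in each group and 5 CPM in 1 group, 4 near-0 genes each way given by counts, and in each list the 3 largest called changes, or all where 5 or fewer were called. Genes outside this rule are marked as chosen later, and some items that the rule names are not reported here. Of 113 named genes, 78 were in the RefSeq promoter table, and 20 overlap an exon of another tested gene. A level of 3 counts is 0.0656 to 0.121 CPM. Depth of 31.66 to 40.96 megareads sets the counting error of near-0 genes, and that error does not cover the spread between cultures.

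Alternatives were DESeq2 1.42.0, its size factors, total-count scaling, no filter, all 19 libraries, a replicate block, length and GC offsets, limma-voom with sample weights and each library left out in turn. Leaving out both DMSO 2 h replicate 3 and thapsigargin 6 h replicate 1 was added after seeing the data.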

Additional observations from a re-analysis of the deposited data

Results flagged for a closer look

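The response differed between 2 and 6 h, by the test of the difference itself in edgeR, for 1002 genes, of which 555 were higher and 447 lower at 6 h relative to 2 h. Among the panel, Asns (1.09), Hspa5 (1.31) and Atp2a2 (1.32) had a larger response at 6 h and Chac1 (-3.51) a smaller one, in log2 units. Among called genes with at least 10 counts in each group and a mean of at least 5 CPM in 1 group, the highest differences were those of Elmo1 (7.06), Atp2a3 (5.66), Prg4 (5.41), Sspo (5.39), Cox6a2 (5.17), Tfcp2l1 (5.14), Avil (4.98), Fgf21 (4.93), Gdap1l1 (4.88) and Vwf (4.43). The lowest under the same limits were those of Hist1h1b (-5.41), Dusp2 (-4.72), Egr1 (-4.65), Npas4 (-4.52), Tcim (-4.28), Egr2 (-4.15), Kcnj2 (-4.12), Thbs1 (-4.07), Slco4a1 (-4.05) and Egr3 (-4.02). Each came from 3 libraries per group, a number too small for a test of single outlying libraries. The difference of Sspo was 0.48 without DMSO 2 h replicate 1 (adjusted p 0.819), so its 2 h response is not measured.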

How the results depend on the processing

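Of 113 named genes 107 were called, and no called gene changed sign under any alternative run; 62 stayed past the threshold under every setting other than leaving out 1 library, and 64 without any 1 library. The total of 1002 calls (555 higher, 447 lower) became 1953 (1105 and 848) with DESeq2, 1712 (959 and 753) with length and GC offsets, 8555 (4672 and 3883) with limma-voom and sample weights, which weighted DMSO 2 h replicate 3 at 0.0766 and thapsigargin 6 h replicate 1 at 0.0906, and 2263 (1118 and 1145) without those 2 libraries. Of the 1002 genes, 1002, 937, 1002 and 954 were among these calls. With total-count scaling 328 genes were called higher and 354 lower, and the median of all genes was -0.04 instead of 0.05. The cause of these shifts was not tested. Without 1 library each, the total ranged from 514 to 1387, calls higher from 270 to 720 and calls lower from 243 to 667. DESeq2 size factors gave 1037 calls, no filter 930 and all 19 libraries 719.

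The replicate block gave 702 calls (378 and 324), 696 of them among the 1002; of the DMSO 6 h libraries, replicates 2 and 3 correlated best with thapsigargin libraries of another number. The correlation of deviations from the group means between same-numbered DMSO and thapsigargin libraries was 0.53, -0.92 and 0.69 at 6 h and -0.03, 0.01 and -0.08 at 2 h. Correlations of deviations from means of 3 libraries cannot settle whether the same number marks paired samples. The block together with length and GC offsets was not run. Further list counts that moved by over 1.5 times included, with total-count scaling, calcium genes called higher (4 to 1), mitosis genes called lower (2 to 1), p53 targets called lower (3 to 1) and YAP and SRF targets called lower (1 to 3). With all 19 libraries, NRF2 targets called higher went from 3 to 1, matrix genes called lower from 4 to 2 and histones called lower from 4 to 2. With length and GC offsets, cholesterol genes called lower went from 3 to 10 and mitosis genes called lower from 2 to 5. The change of Ddit3, 0.09 and not called, was -0.0056 with length and GC offsets and ranged from -0.40 to 0.79 without 1 library each. Depth limits genes near 0: 98 called genes had fewer than 10 counts in a group.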
